A study of Homo sapiens with 2 samples.

Results

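DEAD box and DEAH box proteins are the largest group of human RNA helicases, the enzymes that use ATP to separate RNA strands and to move or strip proteins from RNA. DEAD box proteins (gene symbols DDX) open short duplexes locally, and DEAH box proteins (DHX) move along RNA strands. They act in splicing, export, translation, decay, ribosome assembly and the sensing of viral RNA. ALKBH5 demethylates N6-methyladenosine (m6A), the commonest internal mark of mRNA. DDX46 and DDX3X are known protein partners of ALKBH5.

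The genes described here are the DDX and DHX genes named in the deposited tables of HL-60 cells, with the remaining entries of the Gene Ontology (GO) term RNA helicase activity. HL-60 is an established human promyelocytic leukaemia line. RNA immunoprecipitated with an ALKBH5 antibody from 80% of the lysate was sequenced beside input RNA from 10% of it, with 1 library of each. No treatment separates these groups, and the genotype label of both libraries reads ALKBH5. The titles of the libraries name the opposite group to their library names, which were used here. An IgG library was not analysed here.

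In all, 61 of the 5851 symbols in the tables were members, on 60 distinct gene identifiers. They comprised 30 DDX symbols, 15 DHX symbols and 16 other entries of the term. The members were chosen because they were listed, that is, named in a GO term, a KEGG pathway or a table of RNA-binding protein families. Their listing is therefore a description and was not tested. The tables give no read count, peak height or value per library, so a listed gene has no level, and no difference between immunoprecipitate and input could be computed.

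Of 11 markers of promyelocytes and neutrophils, 5 were listed (MPO, PRTN3, CD33, MYC and LYZ), while ELANE, AZU1, CTSG, CEBPE, MYB and CSF3R were not. Of 7 markers of other lineages, EPCAM and PECAM1 were listed. Of all protein-coding genes, 26.6% were listed, so the share for other lineages is near that background. ALKBH5 itself was an entry of 8 terms and was absent from the family table. Among these 8 terms, nuclear speck also held 10 helicase members (16.4%, against 4.61% of all 5614 symbols of the GO and KEGG tables). The term mRNA export from nucleus held 7 (11.5%, against 1.43%). Both counts include DDX39B and ATP6V1G2-DDX39B, symbols that share an identifier. The remaining terms of ALKBH5 are not compared here. Shared terms reflect what is known of the genes, and a link between ALKBH5 and the helicases was not tested.

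The listed DDX and DHX genes covered most of the family. RefSeq (GRCh38.p14) holds 55 protein-coding genes of this kind, counting RIGI, which the tables name by its older symbol DDX58. Of them 45 were listed (81.8%, exact Clopper-Pearson 95% interval 69.1 to 90.9%), where 26.6% of all 20056 protein-coding genes were listed. The listing defined the members, so nothing is read from that gap. By branch, 30 of 39 DDX genes (76.9%) and 15 of 16 DHX genes (93.8%) were listed. The interval covers counting error only.

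The unlisted genes of the family numbered 10. DDX4, DDX25, DDX43 and DDX53 are known mainly from germ cells or as cancer-testis antigens. DDX3Y is the Y-linked copy of DDX3X, and DDX50 is the close copy of the nucleolar DDX21. DDX19A and DDX19B are export factors, and DDX59 and DHX32 are less well characterised. The identifier of DDX19B was in the tables under another symbol, RP11-529K1.3. For the other unlisted genes, the tables do not tell a gene without a peak by the authors' criteria from one that carried no listed term.

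**Figure D1:**
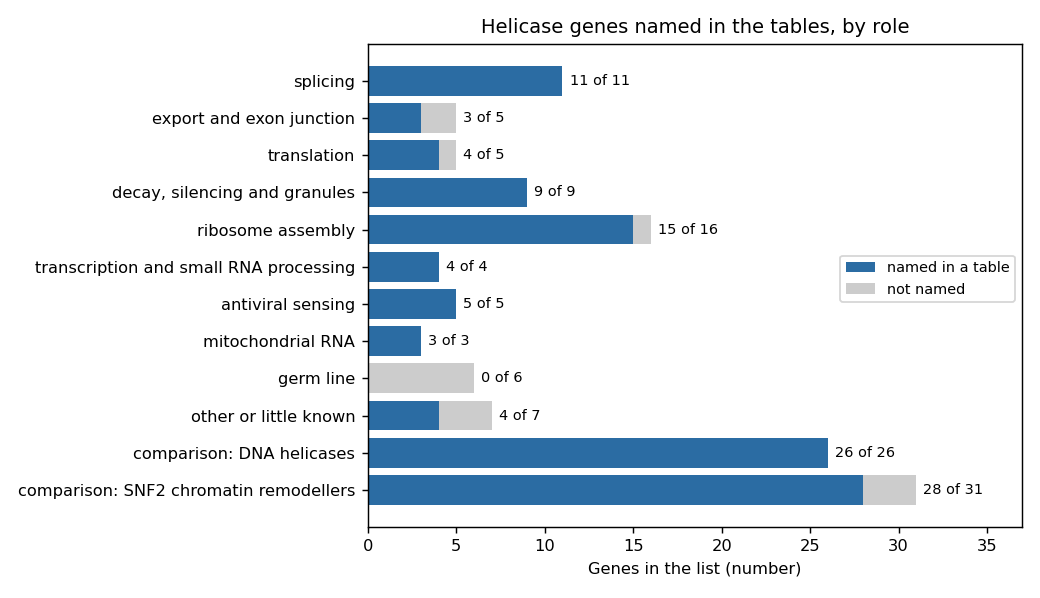
Number of helicase genes named in any table (blue) or not named (grey), for 10 lists of RNA helicases by role and 2 comparison lists; the horizontal axis counts genes. The splicing list was listed in 11 of 11 cases and the germ line list in 0 of 6. Of all protein-coding genes 26.6% were listed, and no difference between the lists was tested.

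Splicing helicases were listed without exception. The list held 11 genes, and 11 were named in the tables (95% interval 71.5 to 100%), where 26.6% of all protein-coding genes were. Members were chosen by listing, and the role lists with earlier results known. Nothing is therefore read from such counts and intervals, here or in the lists below. DDX23, DDX46 and DDX42 act in early spliceosome assembly, and AQR and SNRNP200 belong to the assembling and activated spliceosome. DHX16 and DHX38 drive the catalytic steps, DHX8 releases the spliced mRNA, and DHX15 takes the spliceosome apart. DDX41, mutated in some familial myeloid malignancies, and DHX35 are found in the late spliceosome. All 11 were entries of the GO term mRNA splicing, via spliceosome, where 2.94% of all 5614 symbols of the GO and KEGG tables were entries. The role lists were drawn up from known functions, so entries in matching terms follow from that choice and are no finding. The KEGG pathway Spliceosome held 9 of them (1.5% of all those symbols), the exceptions being DDX41 and DHX35. DDX46, at 134758779 to 134831121 of chromosome 5 (GRCh38.p14), was named by 11 terms, nuclear speck, Cajal body and fibrillar center among them. None of the 11 genes was in the family table, where 19.8% of all GO and KEGG symbols were, and nothing is read from so small a count.

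Helicases of ribosome assembly formed the largest role list, with 15 of 16 genes listed (93.8%). They were DDX10, DDX18, DDX21, DDX24, DDX27, DDX31, DDX47, DDX49, DDX51, DDX52, DDX54, DDX55, DDX56, DHX33 and DHX37. Most of these proteins act on pre-ribosomal RNA in the nucleolus. The term nucleolus named 13 of the 15 (8.67% of all GO and KEGG symbols), with DDX10 and DDX49 outside it. The term rRNA processing held 10 of them (1.78% of all GO and KEGG symbols). Here too the genes were picked for this role, so both counts follow from the choice. The missing gene was DDX50, which lies on chromosome 10 from 68901315 to 68946847, only 9.32 kb from the listed DDX21 (68956170 to 68985068). No member of this list was in a listed KEGG pathway, where 22.6% of all GO and KEGG symbols were. The listed pathway Ribosome biogenesis in eukaryotes (57 symbols) held no helicase member of any list. This absence describes the annotation and is no trait measured in these genes.

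For decay, silencing and RNA granules, 9 of 9 genes were listed. UPF1 drives nonsense-mediated decay, and DHX34 assists it. DDX6 represses mRNA and promotes its decapping in P-bodies, SKIV2L (now SKIC2) feeds the cytoplasmic exosome, and SKIV2L2 (now MTREX) feeds the nuclear one. DHX36 unwinds G-quadruplexes. These 6 were members, and DDX6, DHX36, SKIV2L and SKIV2L2 were entries of the KEGG pathway RNA degradation (0.802% of all GO and KEGG symbols). The other listed genes, MOV10, HELZ and the m6A reader YTHDC2, were named in other terms but not in RNA helicase activity. These 3 were listed without being members.

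Export helicases were split. DDX39B (also called UAP56) and DDX39A load export factors onto mRNA, and EIF4A3 anchors the exon junction complex. All of these were listed, and each was an entry of mRNA export from nucleus. DDX19A and DDX19B, which release mRNA on the outer face of the nuclear pore, were not listed under their own symbols, leaving 3 of 5. The identifier of DDX19B, under the symbol RP11-529K1.3, was in 10 terms. DDX19B and DDX19A lie 11.6 kb apart on chromosome 16. Reads of such copies may not be assignable to either. This was not tested, and the identity of their sequences was not computed.

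DDX39B had a second symbol. The readthrough transcript ATP6V1G2-DDX39B carried its identifier, and the same 21 terms named both. It is the only identifier shared by a pair of members, and it is why 61 symbols stand on 60 identifiers. DDX39B lies on chromosome 6 from 31530226 to 31542003, inside the span of the readthrough (31530219 to 31546848).

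Of the 5 translation helicases 4 were listed. EIF4A1 and EIF4A2 unwind mRNA leaders for the scanning ribosome, DDX3X helps with structured leaders, and DHX29 binds the small ribosomal subunit. DDX3X, on chromosome X from 41333308 to 41364472, was named by 24 terms. They included stress granule assembly, positive regulation of translation and, unlike any other member, neutrophil degranulation, secretory granule lumen and ficolin-1-rich granule lumen. DDX3X alone is 1.64% of the members, against 4.22%, 1.3% and 1.44% of all GO and KEGG symbols in these granule terms, so no excess is seen. It was also the only member in chromosome segregation and the KEGG pathway Viral carcinogenesis. DDX3Y was not listed. DHX29 was named by 4 terms, among the fewest.

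Sensors of viral RNA were listed in 5 of 5 cases. DDX58 (RIG-I) and IFIH1 (MDA5) detect viral double-stranded RNA and signal to interferon, DHX58 (LGP2) modulates both, and DDX60 and DDX60L are interferon-induced. DDX58 and IFIH1 were named by 12 terms each and shared 8. The term double-stranded RNA binding held 4 of the 5 (0.944% of all GO and KEGG symbols), and DDX60L was the exception. Only DDX60L was an entry of RNA binding. DDX60 and DDX60L lie 30.8 kb apart on chromosome 4.

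DDX5 and DDX17, coregulators of transcription that also assist microRNA processing, were both listed, with 16 terms each and 10 in common. DHX9, which unwinds RNA, DNA and hybrids of these, was named by 30 terms, more than any other member. DDX20, a subunit of the SMN complex, was named by 15. These 4 genes of the list were all listed. The 3 mitochondrial helicases DDX28, DHX30 and SUPV3L1 were listed as well. All were entries of mitochondrion (10.2% of all GO and KEGG symbols) and mitochondrial nucleoid (0.517%), which follows from choosing them by known role.

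None of the 6 germ line helicases was listed (95% interval up to 45.9%). That interval includes the 26.6% of all protein-coding genes that were listed, so no lack of germ line genes is read from it. These were DDX4 (the vasa homologue), DDX25, DDX43, DDX53, TDRD9 and MOV10L1, of which the last pair acts with piRNAs. Of the 7 other or little known genes, DDX1, DDX11, DHX40 and DHX57 were listed and DDX59, DHX32 and DQX1 were not. DDX1 belongs to the tRNA ligase complex. DDX11 is a DNA helicase of sister chromatid cohesion and the only DDX or DHX member outside the row RNA helicase activity. Over all 10 role lists, 58 of 71 genes were listed.

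The members outside the role lists numbered 6. G3BP1 nucleates stress granules, and HELZ2 is a nuclear coactivator with helicase domains. FANCM and RAD54B are DNA repair proteins that the authors' table counts under RNA helicase activity. RP11-529K1.3 and ATP6V1G2-DDX39B are described above.

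The lists of DNA helicases and chromatin remodellers were also mostly listed, and no difference between the lists was tested. Each holds 1 of the members, FANCM and RAD54B, which are listed by construction. Of 26 DNA helicases, such as the MCM and RecQ proteins, 26 were listed. Of 31 SNF2 chromatin remodellers, which share the helicase fold but slide nucleosomes, 28 were listed, and SMARCA1, CHD5 and TTF2 were not. Among the authors' background genes, 53.2% of ATP binding and 57.2% of RNA binding were entries by distinct identifier.

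In the authors' deposited table, RNA helicase activity had 60 entries on 74 background genes, a rich factor of 2.43, a p-value of 5.21e-05 and a corrected value of 0.0132. It ranked 7 of the 63 molecular functions in the authors' deposited table, directly behind DNA helicase activity (52 entries on 58 genes, corrected p 0.00712). For the broader helicase activity, the authors' deposited table gave 33 entries on 33 background genes, with corrected p 0.0411. Those entries stood on 31 distinct identifiers, fewer than the background genes. The entries of the RNA term stood on 59 identifiers, 79.7% of the background genes.

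The members were named by a median of 11 terms (range 3 to 30), against 4 over all 5614 symbols of the GO and KEGG tables. This number counts annotations and is not a level. DHX9 (30), DDX11 and DDX3X (24 each), EIF4A3 and UPF1 (22 each) had the most. DDX60L, DHX40 and DHX57 (3 each), DHX29 (4), and DDX10 and DHX34 (5 each) had the fewest. DHX40 and DHX57 carried the same 3 terms. Helicases of ribosome assembly had a median of 7 terms, splicing helicases 12 and those of transcription and small RNA processing 16.

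**Figure D2:**
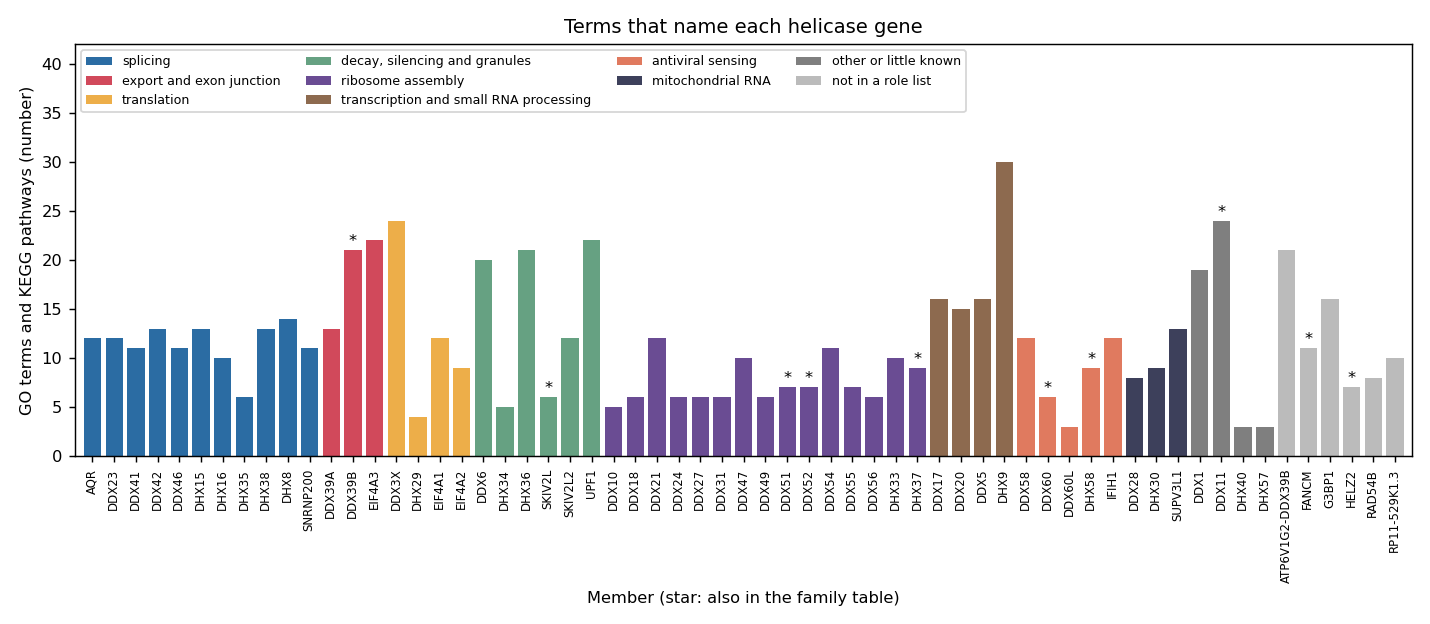
Number of GO terms and KEGG pathways (vertical axis) that name each of the 61 members (horizontal axis), coloured by role list; a star marks the members of the family table. DHX9 stands highest with 30 terms, and the ribosome assembly genes lie between 5 and 12.

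ATP binding was the only term that named every member (61 of 61), where 14.6% of all GO and KEGG symbols were entries. RNA binding named 54 (88.5%, against 14.6%). The exceptions were DDX11, DDX58, DDX60, DHX58, FANCM, IFIH1 and RAD54B, so that 4 of the 5 antiviral sensors stood outside it. Nucleolus named 23 members (37.7%, against 8.67%) and nucleoplasm 35 (57.4%, against 34.5%). Cytosol named 23 members (37.7%, against 43.9%), and mitochondrion 7 (11.5%, against 10.2%). These shares follow from what is known of the genes and not from a measurement in HL-60.

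Among processes, mRNA splicing, via spliceosome named 18 members, 10.9% of its entries, and rRNA processing named 13, 13.0% of its entries. Only EIF4A3 and SKIV2L2 were entries of both. Double-stranded RNA binding named 13 members, 24.5% of its entries. Cytoplasmic stress granule (0.802% of all GO and KEGG symbols) named 6 members: DDX1, DDX3X, DDX6, DHX36, G3BP1 and RP11-529K1.3. Of the 38 KEGG pathways 8 named a member, and 25 members (41.0%) were in at least 1 of them, where 22.6% of all GO and KEGG symbols were in a pathway. The pathway Spliceosome named 13 members (21.3%, against 1.5% of all GO and KEGG symbols), and RNA transport named 7 (11.5%, against 1.62%). RNA degradation and mRNA surveillance pathway named 4 members each (6.56%), against 0.802% and 0.962%. DDX39B and ATP6V1G2-DDX39B, which share an identifier, are counted separately in the splicing term and in these pathways except RNA degradation.

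**Figure D3:**
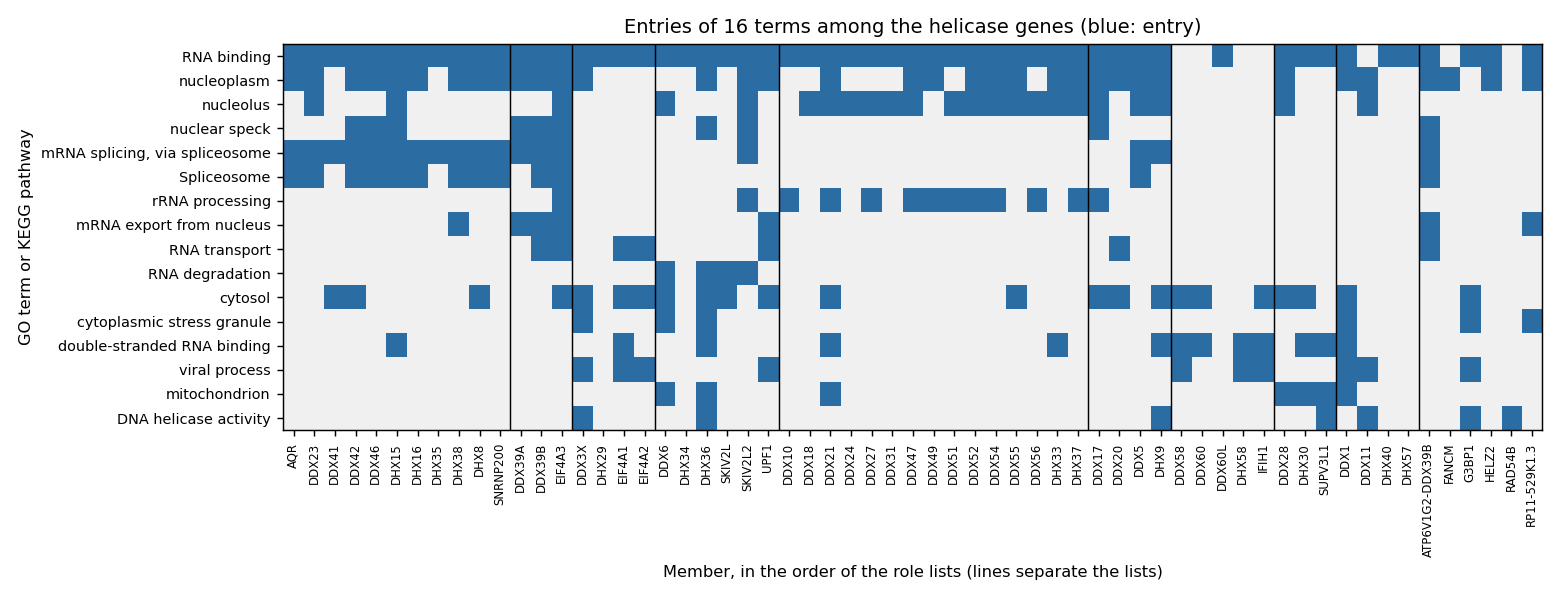
Entries (blue) of 16 GO terms and KEGG pathways (rows) among the 61 members (columns, grouped by role list with lines between the lists). The term mRNA splicing, via spliceosome marks 11 of 11 genes of the splicing block, nucleolus 13 and rRNA processing 10 of the 15 ribosome assembly genes, and RNA binding is empty for 4 of the 5 antiviral sensors.

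The family table held 10 of the 61 members (16.4%, 95% interval 8.15 to 28.1%), where 19.8% of all GO and KEGG symbols were in it. They were DDX11, DDX39B, DDX51, DDX52, DDX60, DHX37, DHX58, FANCM, HELZ2 and SKIV2L. By role, 3 were helicases of ribosome assembly and 2 were antiviral sensors. Each of the 10 was paired with the RRM and CSD families, and 9 with PUF (FANCM was the exception). The joint family of CCHC zinc fingers and RRM was paired with 8 (DDX52 and DHX37 were not). Of all 1348 symbols of the table, 1348 were paired with RRM, 1342 with CSD, 1183 with PUF and 893 with the joint family. Pairing with RRM thus held for any symbol there and is no trait of the helicases. Pairing with all 4 families held for 7 of the 10 members and for 62.2% of all 1348 symbols of the table. The basis of the pairing is not stated in the sources used here. No member was named in the family table alone.

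In the genome, the 59 members with an identifier of their own lay on 20 chromosomes, with 9 on chromosome 17 and 7 on chromosome 12. Listed DDX and DHX genes had a median genomic length, introns included, of 31.2 kb (2.32 to 276.0 kb), and unlisted ones 27.8 kb (3.63 to 79.1 kb). The ranges overlap. Over all protein-coding genes the medians were 35.6 kb for listed and 20.1 kb for other genes. DDX28, at 2.32 kb the shortest of the family, was listed, as was DDX10, the longest.

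**Figure D4:**
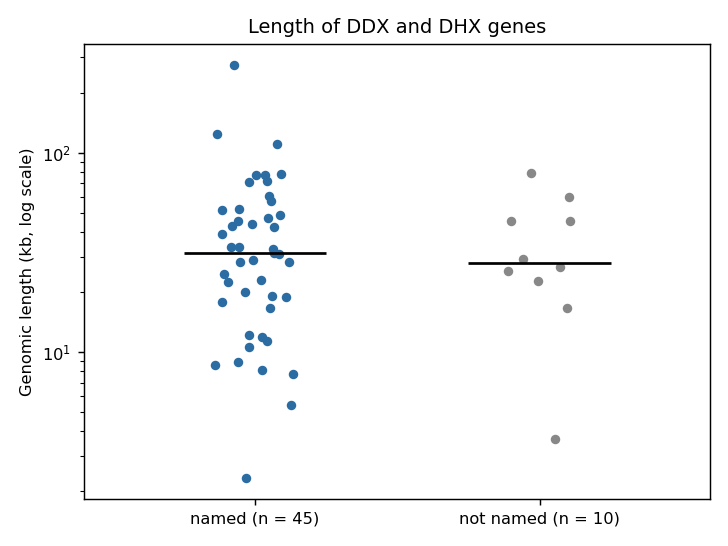
Genomic length in kb (log scale) of the 45 listed and 10 unlisted DDX and DHX genes; each point is a gene and the lines are medians. The medians are 31.2 and 27.8 kb and the points overlap.

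Some members overlap other annotated genes in position or have similar copies, so a peak may not be assignable to a single gene. Strand was ignored, so genes on the opposite strand, which share no RNA sequence with the member, count too. By position, another protein-coding gene overlapped 11 of the 59, a long noncoding RNA 12, a snoRNA 6 and a microRNA 5. The long noncoding RNAs include DHX9-AS1 and the readthroughs ATP6V1G2-DDX39B and SENP3-EIF4A1. EIF4A2 holds SNORD2, SNORA4, SNORA63, SNORA63B, SNORA81 and MIR1248 within its span, EIF4A1 holds SNORA48, SNORD10 and SNORA67, and DDX5 holds MIR3064 and MIR5047. RefSeq names 38 pseudogenes after 14 of the members, 13 of them after EIF4A1 and 6 after DDX18. DDX11 has the transcribed copy DDX12P on the same chromosome. The sources used here do not say how reads of such copies were assigned.

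Transcript starts were searched for GGACT, which reads GGACU in RNA and is the best known m6A consensus; the third letter is the methylated base. The search covered the first 50 transcribed bases of each annotated start in RefSeq (GRCh38.p14), for 53 members with 65 starts. On the transcribed strand, 4 starts of 4 genes held it (6.15% of starts, against 4.87% of 22199 starts of protein-coding genes). On the opposite strand 4 starts did as well (6.15%, against 5.14%). A match is a description of the letters and not a methylated or bound site, and the positions of peaks were not analysed here. The 4 sites are shown because they are the only ones among the members, in DNA letters with the motif in capitals and 8 bases on each side.
DDX31, chr9:132663387-132663407, minus strand: agactcggGGACTcagagact
DDX56, chr7:44573878-44573898, minus strand: gccatggaGGACTctgaagca
DHX57, chr2:38875911-38875931, minus strand: aggcgccgGGACTgtgccgct
IFIH1, chr2:162318640-162318660, minus strand: agaaagctGGACTcaaagctc
The motif began at base 19 in DDX31 and DDX56, at base 12 in DHX57 and at base 33 in IFIH1, counted from 1 at the annotated start. For DDX31 this is an internal annotated start, since the gene, on the minus strand, begins at 132669983. DDX31 and DDX56 act in ribosome assembly, IFIH1 is the sensor described above, and DHX57 is little known. None of the 4 was in the family table, which held 19.8% of all GO and KEGG symbols, and nothing is read from this.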

How the data were processed

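The data were 3 deposited tables of the whole series from 1 input and 1 immunoprecipitate library of HL-60 cells; depth per library is unknown, which leaves the precision of each listing unknown. Per the file headers, the GO and KEGG tables hold the authors' number of input entries and background genes per term, a rich factor (a ratio, or fold) and a p-value with its corrected p-value. The family table pairs symbols with RNA-binding protein families, per the file headers. Per the submitters' processing notes the genome was hg38; the aligner, peak caller and thresholds are not given in the sources used here.

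Members were found by symbol and by the row RNA helicase activity, then matched by identifier to RefSeq genes of GRCh38.p14 (59 of 61 had an identifier of their own, some under an older symbol). Counts, shares and exact Clopper-Pearson 95% intervals were computed in Python 3.11.15 with SciPy 1.17.1. The code that finds members was checked on a made-up list, and a plain count of the motif on simulated sequences. The code for intervals and overlaps was not checked in this way. No test was made. The members and lists were chosen with earlier results of these data known. A gene of the transcription and small RNA processing list is not reported here, and the counts of that list and of all role lists leave it out. Genes were named by role list, by most and fewest terms and by the family table. Overlaps, counted without regard to strand, and pseudogenes came from RefSeq coordinates and symbols.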

Additional observations from a re-analysis of the deposited data

How the results depend on the processing

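All 61 members were still named elsewhere when the family table, the terms of a corrected p of 0.05 or more, the row RNA helicase activity or every term named for helicases was left out. ATP binding names all 61, so these counts say nothing about stability. The 16 members without a DDX or DHX symbol were chosen by the row RNA helicase activity alone, and a rule without it would give 45. The members were 60 by identifier. The family table alone held 10. With genes of any biotype as the denominator, which adds pseudogenes and antisense RNAs, the listed share of DDX and DHX genes was 45.9%. The family table count (7 members paired with all families), the median of terms (8 with terms of a corrected p under 0.05, 10 with GO alone) and the entries of RNA helicase activity (59 identifiers) moved by less than 1.5 times. A search for protein motifs was not run, since no protein sequences were used here. No paired analysis was possible because no result comes from a test and each group has 1 library. Depth is unknown, so no limit on detection can be given.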
